A study of Mus musculus with 10 samples.

Results

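The respiratory chain genes of mouse CD8+ T cells were followed through 24 h of activation, with the nuclear and the mitochondrial genes set side by side. Members were chosen by name: every protein-coding gene of the count table called Nduf (subunit families A, B, C, S and V), Sdha to Sdhd, Uqcr, Cox4 to Cox8 or Atp5, and every mitochondrially encoded mt-Nd, mt-Co, mt-Cytb and mt-Atp gene. This gave 99 of the 57010 genes in the table. Of these, 86 are nuclear (38 of complex I, 4 of complex II, 8 of complex III, 18 of complex IV and 18 of complex V) and 13 are mitochondrial (7 of complex I, 1 of complex III, 3 of complex IV and 2 of complex V). The symbol Atp5o is given to 2 nuclear members with different identifiers whose spans overlap, so the reads of that gene may be split between them. The names do not cover the whole chain: cytochrome c (Cycs), cytochrome c1 (Cyc1) and Ndufab1 fall outside the rule and are given among the other pathway genes. Ndufa4 is counted with complex I by its name, although the protein is known as a subunit of complex IV, and Cox7a2l, counted with complex IV, is known as a factor that joins complexes III and IV.

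The chain is the series of inner-membrane complexes that oxidise NADH (complex I) and succinate (complex II), pass the electrons through coenzyme Q, complex III and cytochrome c to oxygen at complex IV, and pump protons that drive ATP synthase (complex V). Complexes I, III, IV and V are built from products of both genomes, since the mitochondrial chromosome encodes a few core subunits and the nucleus all others, while complex II is entirely nuclear. T cells are known to enlarge their mitochondrial mass as they leave quiescence.

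RNA came from splenic CD8+ T cells of 5 mice, each giving 1 rested and 1 activated library. The cKO mice (n = 3) were Dusp2fl/fl-E8I-cre+/-, in which cre runs from the E8I element of the Cd8a locus and so in CD8+ T cells, and the control mice (n = 2) were Dusp2fl/fl-E8I-cre-/-. Every mouse carried the floxed allele and only cKO mice carried cre, so loss of Dusp2 and presence of cre cannot be told apart. Activated cells were held with anti-CD3/CD28 beads for 24 h and rested cells in the same medium without beads. Control mouse 1 and cKO mice 1 and 2 were male, and control mouse 2 and cKO mouse 3 were female. Ages of the mice were not given in the sources used here.

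Libraries held 51203786 to 65135435 counts. Dusp2, a nuclear phosphatase of MAP kinases and the targeted gene, stood at 87.8 and 97.4 CPM (counts scaled to a common library size) in rested control cells and at 24.8 to 28.1 in rested cKO cells, and at 292 and 299 against 46.4 to 56.3 after activation. The titles of the libraries from cKO mouse 3 disagree with their library names and characteristics. Grouped by the latter, all 10 of 10 activation marker genes separated every activated from every rested library, and its Dusp2 level lay with the other cKO mice. Summed CPM of 10 CD8+ T cell markers ran from 3590 to 4230 over the libraries, of 8 B cell markers from 3.38 to 6.49, of 10 myeloid markers from 10.9 to 17.9 and of 9 erythroid and platelet markers from 16.6 to 29.5. Summed CPM of 16 natural killer and innate-like markers was 17.7 and 36.1 in rested control, 34.9 to 64.2 in rested cKO, 33.1 and 54.3 in activated control and 62.3 to 99.7 in activated cKO libraries. Levels are CPM scaled by edgeR's TMM factors, tests are edgeR's quasi-likelihood tests over 18966 genes with Benjamini-Hochberg adjustment at 0.05, and "rose", "fell" and "called" refer to that threshold. In bulk RNA, fewer cells of a type and less RNA per cell cannot be told apart, and a level is a share of the library, not an amount per cell.

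Most of the nuclear chain rose with activation. Of the 82 nuclear members that passed the filter on low counts, 65 rose and 6 fell in control cells, where 28.5% of all genes tested rose and 27.6% fell. In cKO cells 67 rose and 5 fell, against 31.5% and 31.9% of all genes. The median log2 fold change of these nuclear members was 0.53 in control and 0.60 in cKO cells, and that of all genes tested was 0.00 and -0.01. The same 65 members rose in both genotypes, 5 fell in both, and none was called in opposite directions. In 67 of the 82 every activated library lay above every rested library (29.0% of all genes tested), and in 5 every activated library lay below (28.1%). Of the 82, Cox6a2 and Ndufa4l2 passed the filter only through the activated groups. Among the 78 nuclear members at 5 CPM or more, 63 rose and 6 fell in control cells, and 65 rose and 5 fell in cKO cells. The other 4 nuclear members, Cox4i2, Cox7b2, Cox8b and Cox8c, held 0 to 2 counts in each library and were not tested.

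Other gene lists moved with activation too. Summed CPM of 15 heat shock and stress genes was 1420 to 1740 in rested and 4630 to 5640 in activated libraries. Summed CPM of 6 CD4+ and regulatory T cell markers was 18.9 to 28.2 in rested and 61.2 to 93.8 in activated libraries. Of these 6, Ctla4, Cd40lg and Zbtb7b rose in both genotypes, while Cd4 lay at 0.16 to 1.22 CPM and Foxp3 at 0.387 to 0.885 CPM over all libraries, neither of them called. The part of these lists in the rise of the nuclear chain was not tested.

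The mitochondrial members did not move with the nuclear chain. Of 13, mt-Nd6 rose and mt-Co1 fell in control cells, and only mt-Co1 was called in cKO cells, where it fell. The median log2 fold change over the 13 was -0.25 in control and -0.08 in cKO cells, and in 11 of 13 the activated and rested libraries overlapped. Both medians also count 6 poorly counted members of a stretch copied on chromosome 1, described below. They thus do not measure the well counted members, of which only mt-Co1 was called. In 1 of 13 every activated library lay above every rested library (29.0% of all genes tested), and in 1 every activated library lay below (28.1%). The plot of changes by complex sets the nuclear genes beside the mitochondrial ones.

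**Figure D1:**
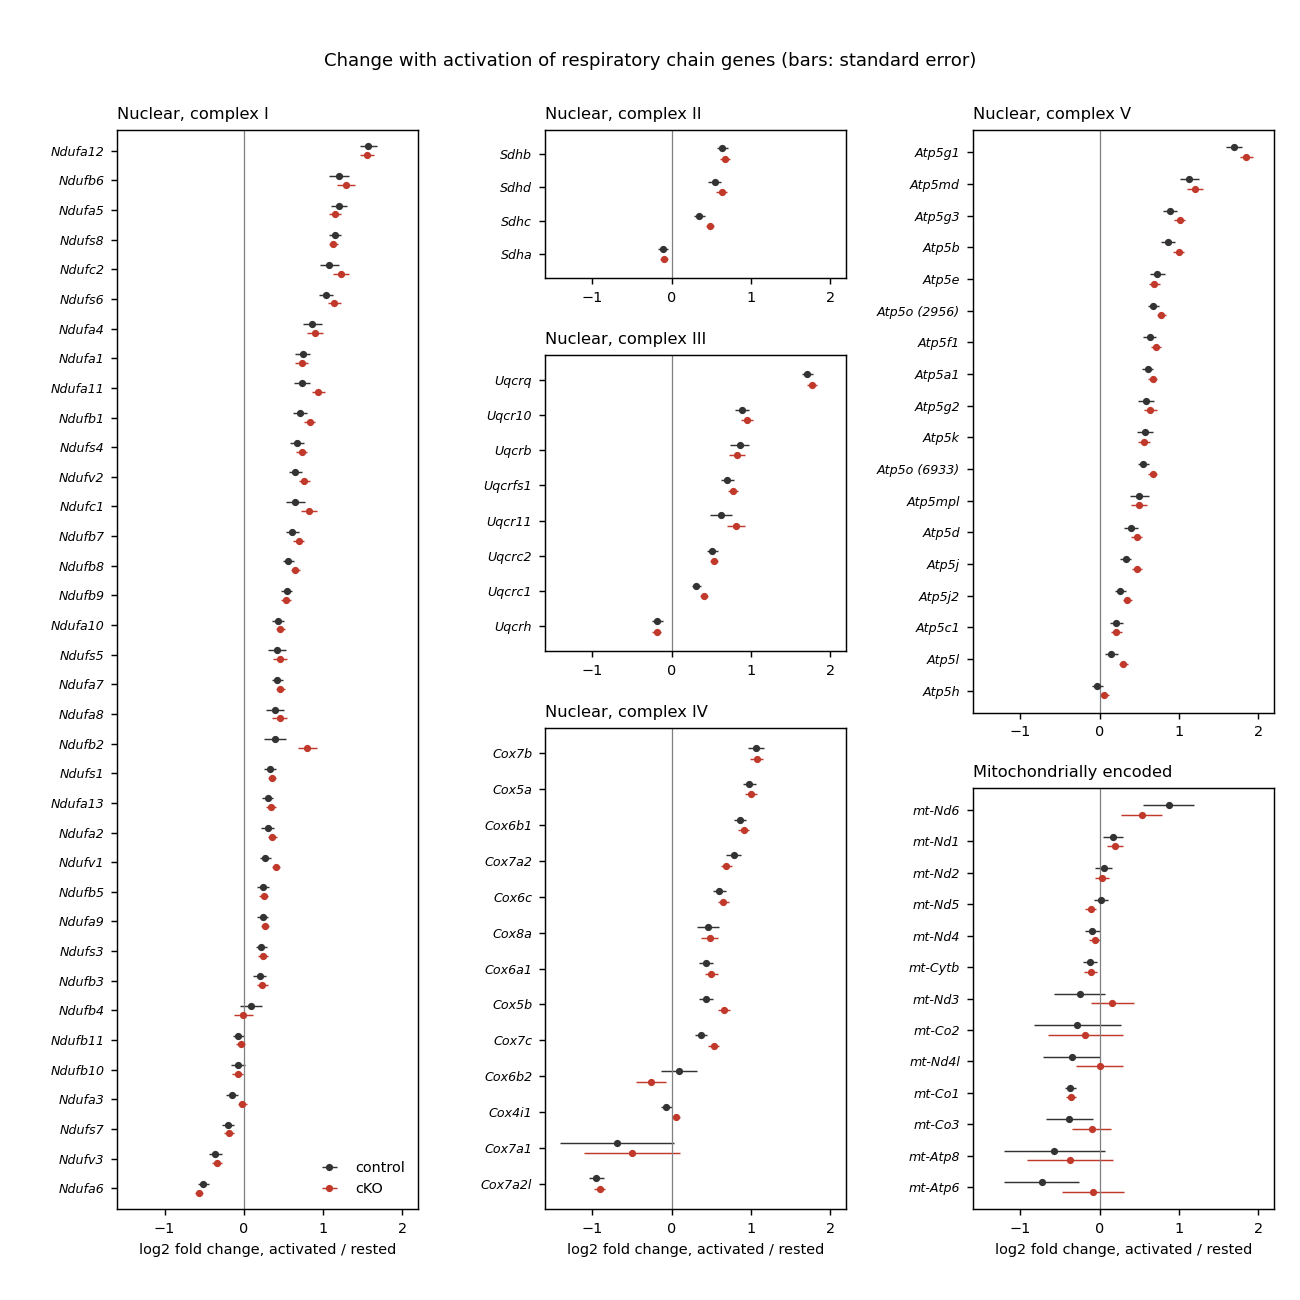
Log2 fold change, activated over rested, of tested members by complex in control (black) and cKO (red) cells, with bars for the standard error. Cox6a2 and Ndufa4l2, at or near 0 counts in rested cells, are left out, and the final digits of the identifiers tell the Atp5o genes apart. Most nuclear points lie right of 0 in both genotypes, and mitochondrial points lie on both sides of it.

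Complex I carries NADH electrons into the chain and holds the most members. Of its 38 nuclear members 29 rose and 4 fell in control cells (median log2 fold change 0.42), and 30 rose and 3 fell in cKO cells (0.46). Here and for the complexes below, 28.5% of all genes tested rose and 27.6% fell in control cells. In cKO cells these shares were 31.5% and 31.9%. Those that rose include Ndufa4l2, which passed the filter on low counts only through the activated groups. Ndufa12, an accessory subunit of the arm that holds the NADH site, rose most among complex I members above 5 CPM. It stood at 11.4 and 11.6 CPM in rested control libraries and 12.5, 13.4 and 14.0 in rested cKO libraries (mice 1 to 3), and at 30.4 and 38.1 in activated control and 35.8, 33.9 and 47.7 in activated cKO libraries. No activated library came near a rested one, and the activated cKO library of mouse 3 was the highest. The log2 fold change was 1.57 (SE 0.11, adjusted p 6.95e-08) in control and 1.55 (SE 0.09, adjusted p 5.32e-09) in cKO cells.

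Other accessory subunits that rose more than 2-fold were Ndufb6 (log2 fold change 1.20 in control, 1.29 in cKO), Ndufa5 (1.20 and 1.15), Ndufc2 (1.08 and 1.23) and Ndufs6 (1.04 and 1.14). The nuclear core subunits, which hold the flavin, the iron-sulfur clusters and the coenzyme Q site, did not change as a block. Ndufs8, which holds a pair of iron-sulfur clusters near the coenzyme Q site, went from 24.1 and 27.5 CPM in rested control and 26.2, 26.6 and 29.0 in rested cKO libraries to 55.4 and 58.8 in activated control and 60.5, 58.4 and 60.1 in activated cKO libraries. Its groups were far apart and tight (log2 fold change 1.15, SE 0.07, adjusted p 2.38e-08 in control). Ndufv2 (0.65), Ndufs1 (0.33), Ndufv1 (0.27) and Ndufs3 (0.22) also rose in control cells, by less. Ndufs7, whose protein lies beside Ndufs8 at the coenzyme Q site, went the other way, with log2 fold changes of -0.20 (adjusted p 0.0498) in control and -0.19 (adjusted p 0.0194) in cKO cells. The call in control cells was lost under most other settings and without control mouse 2, when its log2 fold change was -0.10. The call in cKO cells was lost without cKO mouse 1 (-0.15), without cKO mouse 2 (-0.19), with scaling by library totals only (-0.12) and with limma (-0.12).

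Ndufa6, an accessory subunit of complex I, fell most clearly in that complex. It read 92.5 and 86.4 CPM in rested control and 98.5, 93.1 and 88.6 in rested cKO libraries, and 68.2 and 57.8 in activated control and 64.1, 68.5 and 58.3 in activated cKO libraries. The ranges did not meet, and the log2 fold change was -0.51 (SE 0.07, adjusted p 1.78e-05) in control and -0.56 (SE 0.05, adjusted p 7.53e-07) in cKO cells. Ndufv3, a small flavoprotein-arm subunit, fell as well (-0.36 and -0.34). Ndufa3, Ndufb4, Ndufb10 and Ndufb11 were called in neither genotype, with control log2 fold changes between -0.15 and 0.09.

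Complex II showed its catalytic subunit apart from the other 3. Sdha, the flavoprotein that oxidises succinate, lay at 219 to 227 CPM in the 5 rested and 202 to 212 in the 5 activated libraries. Every activated library was a little below every rested one, and neither genotype reached the threshold (log2 fold change -0.11, adjusted p 0.109 in control, and -0.10, adjusted p 0.0843 in cKO). Sdhb, the iron-sulfur subunit, rose from 41.1 and 44.9 CPM in rested control and 45.6, 46.1 and 42.1 in rested cKO libraries to 64.8 and 68.8, and 71.3, 67.0 and 74.1. The membrane anchors Sdhc (log2 fold change 0.35 in control, 0.48 in cKO) and Sdhd (0.54 and 0.63) rose in both genotypes. Without control mouse 2, the rise of Sdhc in control cells was 0.29 and no longer called.

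Complex III held the largest rise in control cells of any member above 5 CPM, while in cKO cells Atp5g1 of complex V rose further. Uqcrq, a small subunit that contacts cytochrome b, stood at 20.5 and 22.8 CPM in rested control and 20.9, 22.4 and 24.5 in rested cKO libraries. After activation it stood at 64.4 and 77.8 in control and 77.2, 71.1 and 82.8 in cKO libraries, well above every rested library. The log2 fold change was 1.71 (SE 0.07, adjusted p 1.23e-09) in control and 1.77 (SE 0.06, adjusted p 6.32e-11) in cKO cells. Of the 8 nuclear members 7 rose in both genotypes, among them Uqcr10 (0.89 and 0.95), Uqcrb (0.86 and 0.82), the Rieske iron-sulfur protein Uqcrfs1 (0.70 and 0.77) and the large core proteins Uqcrc2 (0.51 and 0.53) and Uqcrc1 (0.31 and 0.41). Uqcrh, the acidic hinge protein beside cytochrome c1, was lower in activated cells by a small step (-0.18, adjusted p 0.0348 in control; -0.19, adjusted p 0.00888 in cKO). Its libraries overlapped, and the control call was lost when either control mouse was left out (-0.16 without mouse 1, -0.20 without mouse 2) and under other settings. The cKO call was lost without cKO mouse 1 (-0.14), with scaling by library totals only (-0.12) and with limma (-0.12).

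In complex IV, 10 of the 14 tested nuclear members rose and 1 fell, in each genotype. The 10 include Cox6a2, which passed the filter on low counts only through the activated groups. Cox7b (log2 fold change 1.06 in control, 1.07 in cKO), Cox5a (0.98 and 1.00) and Cox6b1 (0.86 and 0.91) rose most among those above 5 CPM. Cox4i1, the main nuclear subunit around the catalytic core, read 167, 164, 170, 170 and 160 CPM in rested and 153, 162, 165, 171 and 182 in activated libraries (control mice 1 and 2, then cKO mice 1 to 3). Its ranges overlapped and it was called in neither genotype (-0.07 and 0.05).

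Cox7a2l fell further than any other nuclear member called. It read 320 and 322 CPM in rested control and 303, 322 and 318 in rested cKO libraries. In activated libraries it read 179 and 155 for control and 154, 188 and 161 for cKO. Rested and activated libraries lay far apart in each mouse, with log2 fold changes of -0.95 (SE 0.09, adjusted p 1.56e-06) and -0.91 (SE 0.07, adjusted p 2.04e-07). Cox7a2, the ordinary subunit of the same family, rose in the same libraries (0.78 and 0.69). On the deposited FPKM scale, which divides by annotated gene length, Cox7a2l was the highest nuclear member at rest (median 212, range 199 to 213). After activation it lay at a median of 111 (106 to 131), when Atp5a1 (171), Atp5b (164), Cox6b1 (129), Atp5o (122) and Cox8a (113) had higher medians. Ranks on this scale depend on the length used: over the 10 libraries Atp5b held 303992 counts and Cox7a2l 138398. In activated libraries the Cox7a2l range overlaps those of Cox6b1 (115 to 155), Atp5o (118 to 147) and Cox8a (91.5 to 129), so its order among these is not clear, and lies below those of Atp5a1 and Atp5b.

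**Figure D2:**
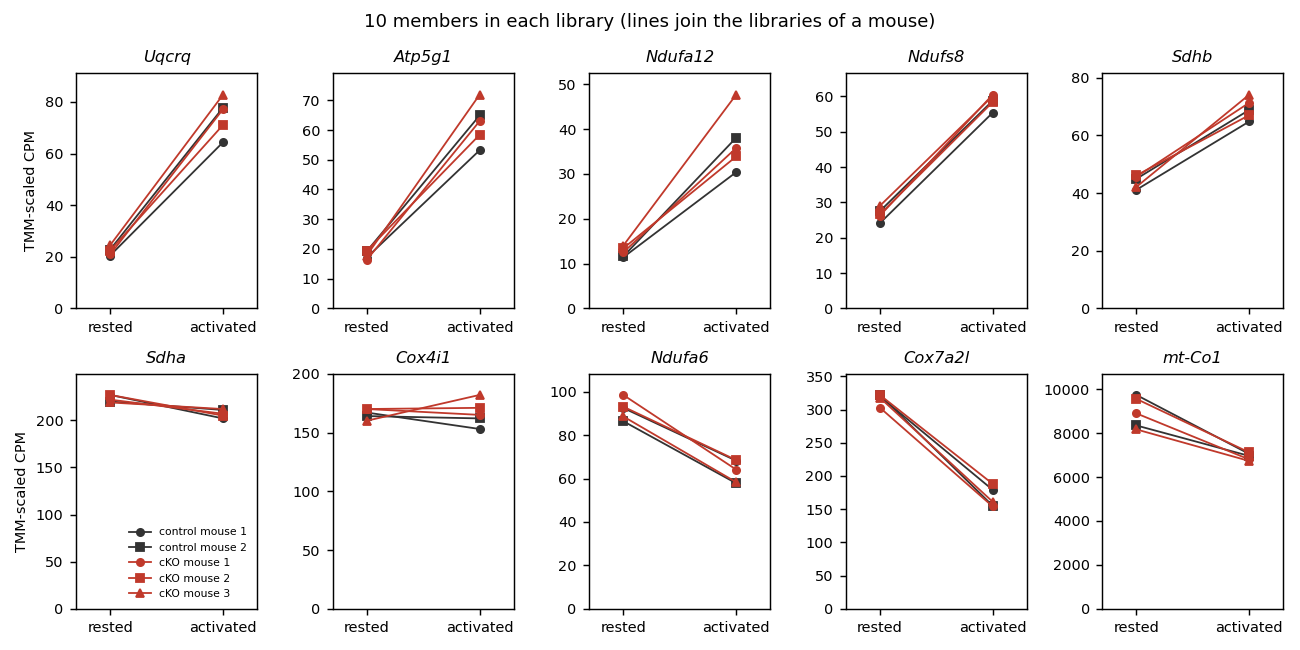
TMM-scaled CPM of 10 members in every library, with a line joining the rested and activated library of a mouse (black control, red cKO) and axes from 0. Uqcrq, Atp5g1, Ndufa12, Ndufs8 and Sdhb are higher in all activated libraries, Sdha and Cox4i1 lie within a narrow range, and Ndufa6, Cox7a2l and mt-Co1 are lower in all activated libraries.

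Some complex IV subunits have tissue forms, and the muscle and heart forms stayed near the floor of 3 counts (0.0461 to 0.0586 CPM) or a little above it. Cox7a1 lay at 0.135 to 0.603 CPM and Cox6b2, a testis form, at 0.925 to 1.67 CPM over all libraries, neither of them called. Cox6a2, the heart and muscle form beside Cox6a1, differed: its counts were 1 and 0 in rested control and 3, 0 and 0 in rested cKO libraries, and 110 and 141 in activated control and 153, 121 and 129 in activated cKO libraries. It passed the filter on low counts only through the activated groups. The ratio of activated to rested counts, scaled by library totals, was 239 in control (exact 95% interval 42.5 to 9480) and 127 in cKO cells (43.2 to 619), where the intervals cover counting error only. In activated cells Cox6a2 had a median FPKM of 3.18, against 95.0 for Cox6a1, so the usual form remained far more abundant. Itgad, whose span overlaps Cox6a2, held 20 and 26 counts in rested control, 16 and 7 in activated control, 11 to 62 in rested cKO and 17 to 34 in activated cKO libraries.

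Ndufa4l2, a homologue of Ndufa4 known from hypoxic cells, moved the same way at much lower levels, with 0 to 4 counts in rested and 7 to 21 in activated libraries. It too passed the filter on low counts only through the activated groups, so its rise is a description. The ratio of counts was 25.7 in control (exact 95% interval 4.24 to 1050) and 11.6 in cKO cells (4.25 to 44.2). Without control mouse 1 it was no longer called in control cells. Its span overlaps that of Shmt2, a mitochondrial serine enzyme gene, which stood at 124 to 161 CPM in rested and 577 to 709 in activated libraries. The part of Shmt2 reads in the Ndufa4l2 counts was not tested.

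In ATP synthase 16 of 18 nuclear members rose in control cells and 17 in cKO cells, and none fell. The head subunits Atp5b and Atp5a1 rose together, Atp5b by 0.86 and 1.00 and Atp5a1 by 0.61 and 0.67 on the log2 scale. A set of 3 nuclear genes encodes the same c subunit of the rotor ring, differing in the targeting part, and they did not move equally. Atp5g1 went from 17.1 and 19.2 CPM in rested control and 16.3, 19.4 and 17.8 in rested cKO libraries to 53.2 and 64.9, and 63.0, 58.4 and 71.9. All activated libraries were far above the rested ones (log2 fold change 1.70, SE 0.10, adjusted p 1.52e-08 in control; 1.85, SE 0.08, adjusted p 5.97e-10 in cKO). Atp5g3 rose by 0.89 and 1.01, and Atp5g2 by 0.59 and 0.64. On the FPKM scale Atp5g3 was the highest of these in both states (median 33.3 rested, 69.8 activated), Atp5g2 came next (18.5 and 29.1) and Atp5g1 was lowest (3.56 and 13.1), with no overlap of their ranges. Over the 10 libraries, however, Atp5g1 held 23968 counts and Atp5g2 22771. The FPKM order of Atp5g1 and Atp5g2 thus rests on the annotated gene lengths and is not a clear order of abundance. Atp5md, a small dimer-associated subunit, rose by 1.13 and 1.20. Atp5h, part of the stalk, was called in neither genotype (-0.03 and 0.06). Atpif1, the inhibitor of ATP synthase, carries that symbol in the table and is not a member; it lay at 15.4 to 19.2 CPM in all libraries and was called in neither control (-0.21, adjusted p 0.108) nor cKO cells (-0.09, adjusted p 0.353).

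Some of these genes have near-identical processed pseudogenes. In GENCODE M21 transcripts, 13 of the 86 nuclear members had a pseudogene copy of at least 98% identity over at least 100 bases, and in 7 the copies held more than 5% as many counts as the member. These shares were 17.2% for Cox7c, 13.9% for Atp5l, 13.4% for Atp5g1, 13.2% for Atp5md, 11.6% for Ndufs5, 7.32% for Atp5h and 7.21% for Uqcrb. The levels of members with a copy are uncertain. These shares do not bound the error, since the treatment of reads that match both places is not given in the sources used here. The spans of 41 of the 86 nuclear members overlap another gene, Ndufb6 (Smim27), Atp5md (Taf5) and Ndufa3 (Tfpt) among those described.

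Added up over members, the nuclear chain was higher after activation in every mouse. The 86 nuclear members added up to 4357 and 4442 CPM in rested control and 4480, 4509 and 4342 in rested cKO libraries, and to 5482 and 6085 in activated control and 6006, 5846 and 6597 in activated cKO libraries. As a share of deposited counts this was 0.425% to 0.440% at rest and 0.564% to 0.673% after activation. The complexes did not share equally in it. Mean nuclear sums of complex V went from 1528 to 2350 CPM in control and from 1527 to 2506 in cKO mice. Those of complex I went from 1246 to 1568 and from 1270 to 1664. Complex III went from 446.8 to 614.3 and from 458.4 to 649.1. The complex IV sum moved little, from 820 to 851.3 and from 831.6 to 921.8, and that of complex II from 358.3 to 397.8 and from 356.1 to 409.4. The complex IV sum includes Cox7a2l, its nuclear member with the most counts, which fell (log2 fold change -0.95 in control, -0.91 in cKO). It thus does not describe most of its members, since 10 of the 14 tested rose in each genotype. The 13 mitochondrial members added up to 19278 and 16383 CPM in rested control and 17243, 19053 and 16192 in rested cKO libraries, and to 15486 and 16014, and 15003, 15493 and 15524, after activation. Rested libraries of control mouse 1 and cKO mouse 2 were the highest, and the sum was lower after activation in each mouse, with log2 changes of -0.32 and -0.03 (control) and -0.20, -0.30 and -0.06 (cKO).

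The log2 ratio of mitochondrial to nuclear sums thus changed with activation by -0.65 and -0.49 in the control mice and by -0.62, -0.67 and -0.66 in the cKO mice (mean -0.62, SD 0.08, n = 5 mice). It is a description over the members, with no test. The ratio ran from 1.88 to 2.15 in rested and from 1.23 to 1.50 in activated libraries, so the states did not overlap. By complex, the change was -0.64, -0.51, -0.53, -0.66 and -0.64 for complex III (control mice 1 and 2, then cKO mice 1 to 3), -0.49, -0.34, -0.48, -0.50 and -0.55 for complex IV, and -0.45, -0.11, -0.34, -0.50 and -0.29 for complex I. Without cKO mouse 3 the mean over all members was -0.61.

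**Figure D3:**
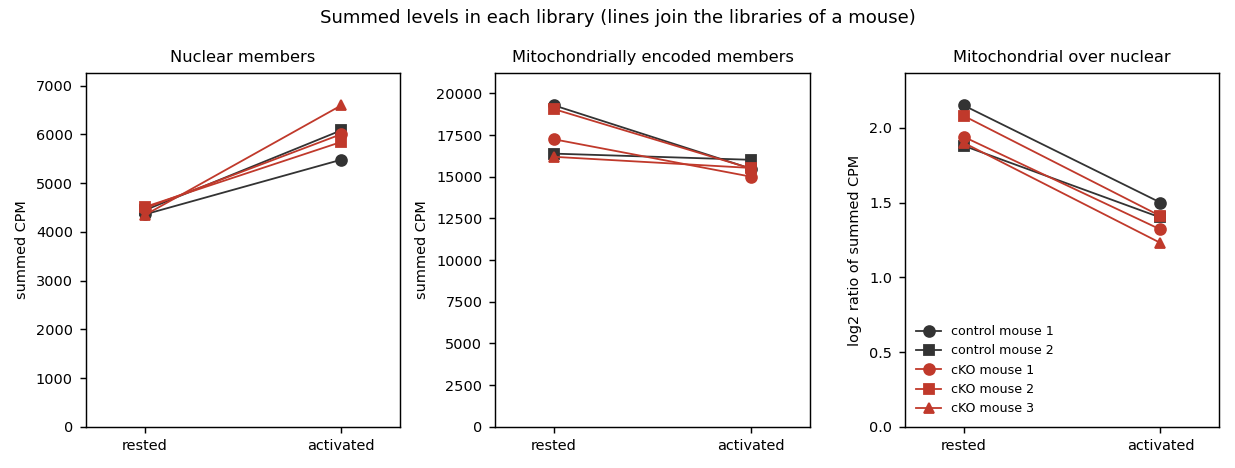
Summed CPM of nuclear members, of mitochondrial members, and the log2 ratio of mitochondrial to nuclear sums in each library, with a line per mouse (black control, red cKO) and axes from 0. Nuclear sums rise from 4342 to 4509 at rest to 5482 to 6597, mitochondrial sums end between 15003 and 16014, and the ratio is lower in all 5 activated libraries.

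Part of that change rests on mt-Co1, the catalytic core of complex IV. It read 9740 and 8350 CPM in rested control and 8900, 9560 and 8170 in rested cKO libraries, and 7050 and 6960 in activated control and 6800, 7120 and 6730 in activated cKO libraries. Activated libraries were all lower and closer together than rested ones. The log2 fold change was -0.37 (SE 0.07, adjusted p 0.000917) in control and -0.36 (SE 0.06, adjusted p 0.000137) in cKO cells, and the control call was lost without control mouse 1 (-0.26). It made up 50.2% to 51.6% of mitochondrial members' CPM at rest and 43.4% to 45.9% after activation. Without it the mean change of the ratio was -0.45.

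The other well counted mitochondrial genes were not called. Cytochrome b of complex III, mt-Cytb, read 3010 and 2650 CPM in rested control and 2480, 3010 and 2610 in rested cKO libraries, against 2550 and 2670, and 2370, 2570 and 2540, after activation (log2 fold change -0.12 and -0.11). The complex I membrane subunits were as flat: mt-Nd1 changed by 0.17 and 0.19, mt-Nd2 by 0.05 and 0.03, mt-Nd4 by -0.09 and -0.06 and mt-Nd5 by 0.02 and -0.11, with overlapping libraries. Per length, on the FPKM scale, the order at rest was mt-Co1 (median 5600), mt-Cytb (2270), mt-Nd1 (1650), mt-Nd5 (1090), mt-Nd2 (1040) and mt-Nd4 (738), and mt-Nd5 and mt-Nd2 overlapped. All were above the highest nuclear member. The mitochondrial ribosomal RNAs mt-Rnr1 and mt-Rnr2, read together, changed by -0.16 and 0.22 (control) and -0.20, -0.08 and 0.26 (cKO) on the log2 scale.

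The light-strand gene mt-Nd6 read 6.91 and 4.24 CPM in rested control and 6.71, 6.94 and 3.63 in rested cKO libraries, and 7.64 and 11.8, and 9.68, 7.85 and 7.06, after activation. All activated libraries lay above the rested ones by a narrow margin. It was called in control cells (0.87, SE 0.32, adjusted p 0.0414) and not in cKO cells (0.53, adjusted p 0.101), and without control mouse 2 its control value was 0.15. Its span overlaps mt-Nd5 on the opposite strand, and whether the counting used strand is not given in the sources used here.

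The counts of 6 mitochondrial members, mt-Co2, mt-Atp8, mt-Atp6, mt-Co3, mt-Nd3 and mt-Nd4l, were far below those of their neighbours. They held 9 to 1352 counts a library, where mt-Nd1, mt-Nd2, mt-Co1, mt-Nd4, mt-Nd5 and mt-Cytb held 52138 to 568231. A nuclear copy of this stretch of the mitochondrial chromosome lies on chromosome 1, where the table (mm39) places a run of pseudogenes from Gm28439, which starts at position 24650616, to Gm29216, which ends at 24655278. In GENCODE M21 transcripts, the copies of mt-Co2 (Gm28661, 681 bases), mt-Co3 (Gm28437, 783 bases), mt-Atp6 (Gm10925, 678 bases), mt-Nd4l (Gm10222, 294 bases) and mt-Nd4 (Gm28439, 876 bases) have no mismatch to the genes, and those of mt-Nd3 (Gm28438, 345 bases) and mt-Co1 (Gm29216, 483 bases) have 1. The opening 53 bases of mt-Nd3 and Gm28438 show how little sets the copies apart. The base in capitals, at position 3 of the compared stretch, is the only difference in 345 bases.

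mt-Nd3: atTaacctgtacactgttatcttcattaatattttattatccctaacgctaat
Gm28438: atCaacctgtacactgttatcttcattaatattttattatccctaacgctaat

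Over the 10 libraries mt-Co2 held 1242 counts and its copy 41695, mt-Co3 held 1125 and its copy 40925, and mt-Atp6 held 1115 and its copy 50227. For mt-Nd3 the numbers were 3282 and 1432, and for mt-Co1, whose copy covers only part of it, 4586709 and 44857. Reads of this stretch can match both places, and how such reads were counted is not given in the sources used here. The levels of these 6 members, and any mitochondrial value for complex V, which rests on mt-Atp6 and mt-Atp8 alone, are uncertain. The 4 copies with the most counts (Gm28661, Gm28437, Gm10925 and Gm29216) summed to 447 and 477 CPM in rested control and 302, 360 and 134 in rested cKO libraries, and to 236 and 313, and 320, 248 and 220, after activation. Rested cKO mouse 3 was lowest here and for the 6 genes themselves, at 14.1 CPM against 31.8 to 40.2 in the other rested libraries. None of the 6 was called in control or cKO cells. Without these 6 and also mt-Co1 and mt-Nd4, which the copy covers in part, the mean change of the ratio was -0.44, and the sum of the rest of the mitochondrial members changed by -0.17 and 0.19 in control and -0.01, -0.18 and 0.14 in cKO mice.

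**Figure D4:**
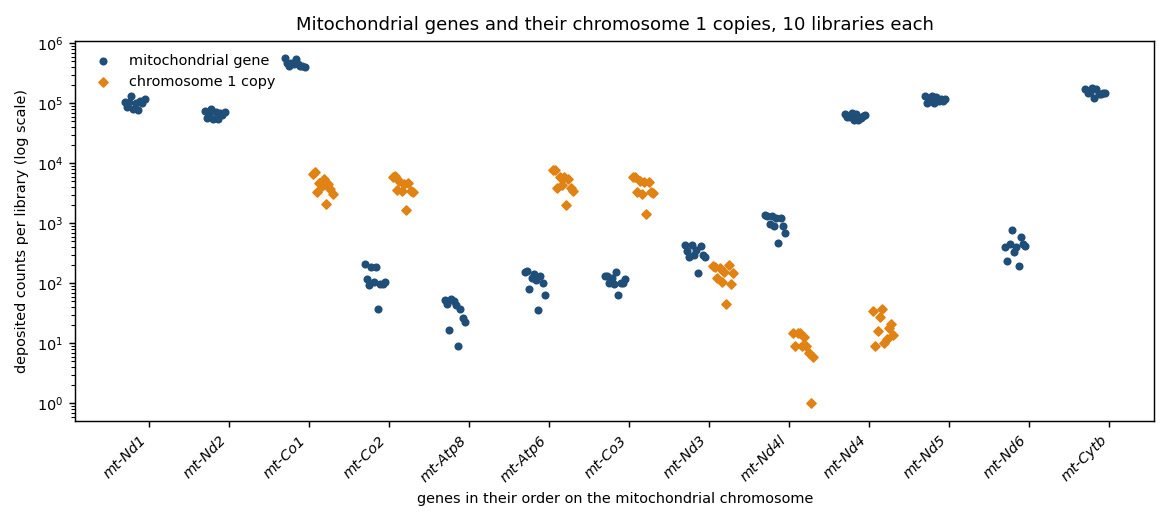
Deposited counts (log scale) of the 13 mitochondrial members in their order on the chromosome (blue) and of their chromosome 1 copies (orange), 1 point for each of the 10 libraries. The copies of mt-Co2, mt-Atp6 and mt-Co3 lie above the genes themselves, and mt-Nd1, mt-Nd2, mt-Co1, mt-Nd4, mt-Nd5 and mt-Cytb hold at least 52138 counts a library.

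The genes that serve the chain showed mixed changes, which are read against the 28.5% of all genes tested that rose and the 27.6% that fell in control cells. In control cells 12 of 18 complex I assembly factors rose and 3 fell, 2 of 4 for complex II rose, 4 of 6 for complex III rose and 2 fell, 10 of 22 for complex IV rose and 1 fell, and 4 of 5 for ATP synthase rose. Ndufaf4 (log2 fold change 1.60 in control, 1.56 in cKO) and Uqcc2 (1.58 and 1.71) rose most among assembly factors of their complexes, and Surf1, an assembly factor of complex IV, fell (-0.74 and -0.75). Cycs, the mobile carrier between complexes III and IV, rose by 1.85 and 1.75, and Cyc1 and Ndufab1 rose as well (0.54 and 0.57 in control). Of 13 coenzyme Q synthesis genes 9 rose and 3 fell in control cells.

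Of 12 genes of mitochondrial DNA upkeep 3 rose and 7 fell in control cells, a share of rises near that of all genes tested (28.5%, with 27.6% falling), and 3 rose and 8 fell in cKO cells (31.5% and 31.9% of all genes). Dguok, the mitochondrial deoxyguanosine kinase, fell by 0.96 and 1.07 on the log2 scale, while Top1mt, the mitochondrial topoisomerase, rose by 1.15 and 1.37. Of 10 mitochondrial transcription genes 6 rose and 1 fell in control cells, with Tfam, which packages mitochondrial DNA and starts transcription, at 0.49 and 0.45. Of 17 genes for processing or stability of mitochondrial RNA 14 rose and none fell, among them Supv3l1 (1.41 and 1.45), Fastkd2 (1.37 and 1.39) and the partners Slirp (1.15 and 1.15) and Lrpprc (1.05 and 0.99). Of 11 nuclear regulators of respiratory genes 4 rose and 6 fell in control cells. Myc (3.27 and 3.31), the PGC-1-related coactivator Pprc1 (1.68 and 1.51) and the GABP subunit Gabpb1 (1.15 and 1.03) rose, and Tfeb (-1.15 and -1.24) and Gabpb2 (-0.51 and -0.66) fell.

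Promoters of the nuclear members were searched for short cores tied to such regulators, in a window from 250 bases before to 50 after the start, on both strands. RefSeq (GRCm38.p6) gave a promoter for 68 of the 85 nuclear symbols. The NRF1 core GCATGCG was present in 16.2% of the 68, against 7.1% of 10837 tested genes with a promoter and 4.0% of all 27025 genes with a promoter. The ETS core CCGGAAG, of the kind GABP binds, was in 25.0% against 19.7% and 9.9%, the YY1 core ATGGCGG in 14.7% against 9.1% and 4.7%, and the E-box CACGTG in 7.4% against 11.4% and 8.1%. No motif contains another, and a match is a description of letters only. The 11 promoters with the NRF1 core included Sdhb, which rose, and Ndufa6, which fell. Sdhb (chr4:140961021-140961320, plus strand) and Ndufa6 (chr15:82354242-82354541, minus strand) are printed to show that core, in capitals, in genes that changed in opposite directions. Capitals in Sdhb also mark the ETS core.

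Sdhb: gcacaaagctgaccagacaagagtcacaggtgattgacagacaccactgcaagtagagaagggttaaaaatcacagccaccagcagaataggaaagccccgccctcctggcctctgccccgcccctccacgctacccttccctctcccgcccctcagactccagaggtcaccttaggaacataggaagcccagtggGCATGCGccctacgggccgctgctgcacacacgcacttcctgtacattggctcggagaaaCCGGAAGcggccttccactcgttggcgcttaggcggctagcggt
Ndufa6: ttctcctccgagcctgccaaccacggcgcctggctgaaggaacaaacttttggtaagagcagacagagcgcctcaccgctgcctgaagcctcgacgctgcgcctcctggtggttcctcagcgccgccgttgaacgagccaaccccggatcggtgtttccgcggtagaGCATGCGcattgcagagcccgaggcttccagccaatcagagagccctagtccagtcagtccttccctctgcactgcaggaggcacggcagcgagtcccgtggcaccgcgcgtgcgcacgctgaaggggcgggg

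Genotype was compared within each state. No member was called between cKO and control cells at rest or after activation, and none by the test of whether the activation change differed between genotypes, where 0.0422%, 0.0422% and 0.0% of all genes tested were called. At an unadjusted p under 0.05, edgeR's test gave 3 of 82 nuclear members at rest (4.13% of all genes tested), 12 of 82 after activation (6.02%), 1 of 82 for the difference of changes (2.74%) and 0 of 13 mitochondrial members in each. DESeq2 and limma also called none of the nuclear members in these comparisons.

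After activation the nuclear members leaned to higher values in cKO cells by small amounts. The median log2 fold change was 0.11 over the 82, against 0.00 over all genes tested, and 76 of 82 were positive. Members are not replicates, and these values rest on 2 control and 3 cKO mice. The summed nuclear levels of the mice overlapped, at 5482 and 6085 CPM in activated control and 6006, 5846 and 6597 in activated cKO libraries. In 16 of 82 every activated cKO library lay above both activated control libraries (7.7% of all genes tested), and in 0 of 82 below (9.36%). Cox5b, a peripheral subunit of complex IV, had the smallest p: it read 41.9 and 47.7 CPM in activated control and 52.9, 44.4 and 57.7 in activated cKO libraries. These overlap, since cKO mouse 2 lay below control mouse 2, and the difference was 0.24 (SE 0.08, edgeR's quasi-likelihood test, unadjusted p 0.0108 and adjusted p 0.727). Cox6b1, which read 79.3 and 88.5 in activated control and 92.7, 88.8 and 107 in activated cKO libraries, did not overlap (0.21, SE 0.07, adjusted p 0.739). The next smallest p values were those of Cox5a (0.21), Ndufa3 (0.18) and the Atp5o gene with identifier ENSMUSG00000022956 (0.15).

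The 13 mitochondrial members all had negative values after activation (median -0.09), and activated cKO and control libraries overlapped in 12 of 13. In 0 of 13 all activated cKO libraries lay above the control ones (7.7% of all genes tested), and in 1 all lay below (9.36%). The well counted mitochondrial members lay between -0.02 (mt-Nd4) and -0.09 (mt-Nd5), and the lowest value, -0.50 (SE 0.52), was that of the poorly counted mt-Co2. At rest the nuclear median was 0.04 with 64 of 82 positive, and all cKO libraries lay above both control libraries in 13 of 82 (8.96% of all genes tested) and below in 4 (8.69%). The 5 smallest p at rest were those of Cox5a (log2 fold change 0.19), Ndufa12 (0.25), Atp5k, a small ATP synthase subunit of the membrane part (0.21), Cox6b1 (0.16) and Cox7a2 (0.17), each with an adjusted p of 1.0 by edgeR's test. In these 5 all rested cKO libraries lay above both rested control libraries. They were picked by p from this same comparison, so that separation follows in part from the choice and is no added support. The mitochondrial median at rest was -0.07 with 1 of 13 positive. Within each sex, the activated nuclear median difference was 0.12 (2 male cKO against 1 male control library) and 0.11 (1 female library each). At rest it was 0.07 in males and -0.03 in females. For the mitochondrial members the activated values did not share a direction between the sexes: 8 of 13 were positive in males (median 0.03) and 1 of 13 in females (-0.07). At rest 1 of 13 was positive in each sex (medians -0.09 and -0.22). Summed natural killer and innate-like markers were also higher in activated cKO (62.3 to 99.7 CPM) than in activated control libraries (33.1 and 54.3), and so were summed heat shock genes (4850 to 5640 against 4630 and 4800); their part in the small shift was not tested.

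Among nuclear members at 5 CPM or more, the largest difference between genotypes in the activation change was that of Ndufb2, a small membrane-arm subunit of complex I. It went from 10.0 and 13.9 CPM to 15.1 and 16.0 in control mice, and from 9.48, 11.0 and 9.46 to 18.3, 15 and 19.2 in cKO mice. The span of Ndufb2 (8073 counts over all libraries) overlaps those of Braf (59398) and Gm42420 (6690), and their part in its counts was not tested. The rested control libraries were not close to each other, and the difference of changes was 0.41 (SE 0.19, edgeR's quasi-likelihood test, unadjusted p 0.0471 and adjusted p 1.0). Cox5b (0.23), Ndufa11 (0.21), Sdhc (0.13) and Ndufv1 (0.13) had the next smallest p. Larger fitted differences belonged to poorly counted members, Ndufa4l2 (-0.82), Cox6a2 (-0.76) and mt-Atp6 (0.64), and none was called.

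**Figure D5:**
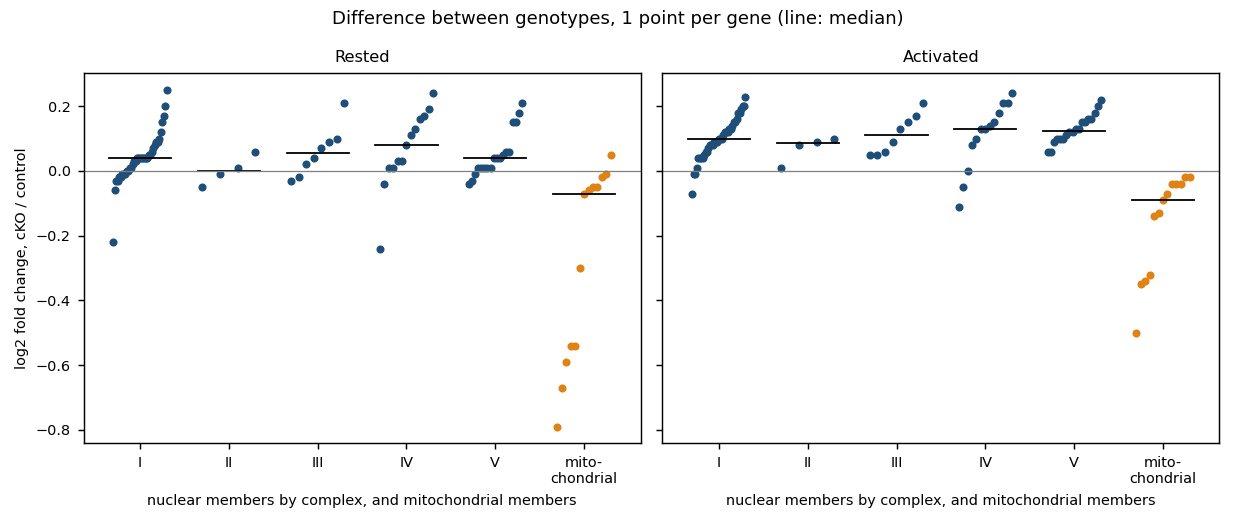
Log2 fold change, cKO over control, of each tested member (blue nuclear by complex, orange mitochondrial) in rested and activated cells, with a line at the median; Cox6a2 and Ndufa4l2 are left out. No point passed the adjusted threshold, and activated nuclear points lie mostly between 0 and 0.24.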

How the data were processed

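The deposited table, made by the authors, holds counts and FPKM values per gene for 10 libraries. Poly(A) RNA libraries were made with a stranded kit, per the labels' protocols, and the submitters' processing notes name Subread and genome build mm39; the sources used here do not give the strand setting or the treatment of multi-mapped reads. FPKM were deposited by the authors, and equal counts scaled by library total and gene length. Libraries of cKO mouse 3 were grouped by library name and characteristics, which their titles contradict.

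Counts were fitted with edgeR 4.0.16 (R 4.3.3): TMM, filterByExpr by group, robust quasi-likelihood fit of group plus sex over all 10 libraries, and Benjamini-Hochberg adjustment over the 18966 genes tested (threshold 0.05). Standard errors were computed back from the test. The biological coefficient of variation was 9.14%. Alternatives used DESeq2 1.42.0, limma 3.58.1 on log2(FPKM + 0.5), other scalings and filters, and leaving out each mouse. Rested and activated libraries of a mouse come from the same animal, and their deviations correlated with r from 0.146 to 0.356. Counts of replicate pairs gave a chi-square of 8.55 to 41.7 for each degree of freedom, above sampling noise, so no pair was taken as repeat deposits of 1 library; the fit has no term for the mouse, and the one with it is an alternative. Pseudogene copies were found with BLAST 2.17.0 among GENCODE M21 transcripts matched by Ensembl identifier, and ratios of counts near 0 have exact 95% intervals. Coordinates of genes are those of the table.

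Members, gene lists and tests were chosen with earlier results of these data known. Named were all mitochondrial members; for each complex the 3 largest called changes each way at 5 CPM or more; all Sdh genes and tissue isoforms; the 5 smallest p in each genotype comparison; others were named after their values were seen. A member is counted but not reported by name here.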

Additional observations from a re-analysis of the deposited data

How the results depend on the processing

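Of 972 recomputed values for single named members, 931 kept direction and side of the threshold, 41 kept direction but lost the call, and 0 reversed. These members were picked in these data for called changes or, between genotypes, for small p with no call. Keeping direction and side thus follows in part from that choice. Most of the 41 were Ndufs7, Uqcrh and mt-Nd6.

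The count of nuclear members that rose, 65 in control and 67 in cKO cells, was 51 to 65 and 64 to 67 when each mouse was left out, and 12 and 14 with an absolute log2 fold change of at least 1, where 0 fell in either. Nuclear members that fell in control cells (6) were 3 with library totals only, with no low-count filter, with no sex term, with only the groups compared, with DESeq2 and with limma on either pseudocount, and 3 to 6 without a mouse. In cKO cells (5) they were 3 with library totals only and with limma, and 3 to 5 without a mouse. Mitochondrial members that rose in control cells (1) were 2 with no low-count filter, 0 with no sex term, with only the groups compared or with the fold threshold, and 0 to 2 without a mouse. Those that fell in control cells (1) were 3 with no low-count filter or with only the groups compared, 0 with the fold threshold, and 0 to 3 without a mouse (0 without control mouse 1, 3 without cKO mouse 3). In cKO cells, 1 rose with library totals only or with only the groups compared, 2 with no low-count filter or DESeq2, and 0 to 2 without a mouse, and 0 fell with the fold threshold. At rest, 1 mitochondrial member was lower in cKO cells with no low-count filter. The causes were not tested.

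With a replicate block for each mouse, 2 mitochondrial members fell in control cells and 64 nuclear members rose; the block changed no other count by more than 1 and left the difference of changes at 0 calls. The mean change of the mitochondrial to nuclear ratio (-0.62) was -0.65 to -0.61 without a mouse, and, in alternatives chosen after seeing the data, -0.45 without mt-Co1 and -0.44 without mt-Co1, mt-Nd4 and the 6 poorly counted genes of the stretch copied on chromosome 1. With medians over members in place of sums the mean was -0.63, but the mice differed more. The changes were then -0.91 and -0.8 in control mice 1 and 2, and -0.27, -0.89 and -0.31 in cKO mice 1 to 3. In every library the mitochondrial median is the level of mt-Nd4l, a poorly counted gene of the copied stretch. The version with medians thus cannot check the ratio.

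Low counts limit Cox6a2 and Ndufa4l2 at rest, the 4 untested nuclear members and the 6 mitochondrial members of the copied stretch.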
